A study of Rattus norvegicus with 8 samples.

Results

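Brain endothelial and vascular genes were followed as a set of 8 fixed members: the tight junction gene Cldn5, the surface and secreted endothelial genes Pecam1 and Vwf, the receptor genes Flt1, Kdr and Tek, the vasoconstrictor gene Edn1 and the smooth muscle actin gene Acta2. The members were chosen by name, though with earlier results of these data known. Their probe sets were taken by symbol, not by signal, as all those whose platform annotation gave a single symbol equal to a member. Of the 8 members 7 were found, with 9 probe sets among 15866 and among 10411 named genes in all. No probe set carried the symbol Tek, the angiopoietin receptor, which was not analysed here. A further 3 probe sets named Acta2 together with a cardiac actin gene and were left out because such a probe set cannot be assigned to 1 gene.

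The data came from 7-week-old male Wistar rats weighing 160 to 200 g. Total RNA from a segment of the right cerebral hemisphere was hybridised to Affymetrix RAE 230A arrays 2 h after surgery. The 4 groups were MCAO candesartan, sham candesartan, MCAO vehicle and sham vehicle, with 2 arrays each, and every array held a pool of 2 rats. MCAO was an occlusion of the right middle cerebral artery for 90 min followed by reperfusion, and sham rats had a sham operation. Candesartan, a blocker of the angiotensin AT1 receptor, was injected at 0.1 mg/kg with 2 injections a day for 5 days, and vehicle rats received saline on the same schedule. For the second MCAO candesartan array (MCAO candesartan 2) the treatment protocol named no drug or vehicle, and it was placed in its group by its sample description.

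The arrays were brought by the authors to a common mean, and their 2%-trimmed means differed by at most 0.000426%. MCAO candesartan 2 stood apart, correlating with the remaining arrays at 0.960 on average, where each of those averaged 0.976 to 0.978. Pools of MCAO candesartan differed from each other by a median of 0.22 (log2), and those of sham vehicle by 0.13. Over all tested probe sets 27.7% had their lowest signal on MCAO candesartan 2, against 7.95% to 13.4% on each other array. The labelled tissue showed neuron, astrocyte and oligodendrocyte markers on every array, and 0 signals of any marker list were listed at 0. Very dim signals were listed too, such as 16 for Sox17 on MCAO vehicle 2, so a listed signal does not by itself show expression. These were bulk tissue samples, so fewer vascular cells and less vascular RNA per cell cannot be told apart.

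Endothelial cells line the vessels of the brain and form the blood-brain barrier, sealed by tight junction strands in which claudin-5, the product of Cldn5, is a main component. Vascular endothelial growth factor (VEGF) acts on these cells through the receptor encoded by Kdr, while the receptor encoded by Flt1 binds the same factor tightly and also exists in a soluble form that can trap it. Endothelin-1, released by endothelium, contracts the smooth muscle of arterioles, whose contractile apparatus contains the actin encoded by Acta2. Angiotensin II acts on the same smooth muscle through the AT1 receptor, and barrier opening is a known event after ischemia and reperfusion.

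Promoter sequence was matched for 5 members (Cldn5, Flt1, Kdr, Edn1 and Acta2) in the RefSeq table of build GRCr8, as 250 bases before to 50 bases after each annotated start. The windows of the VEGF receptor genes Flt1 (chr12:12333180-12333479, plus strand) and Kdr (chr14:32571813-32572112, plus strand) are shown to set both receptors of the same factor side by side. That of Edn1 (chr17:22666638-22666937, minus strand) is shown because endothelin-1 is the vasoconstrictor of the set. Capitals mark every match, on either strand, to the TATA element TATAAA, the GATA element AGATAA, the hypoxia response core ACGTG, the cyclic AMP response element TGACGTCA, the AP-1 element TGACTCA and the ETS elements, spelled CCGGAA or, in a second form, AGGAAG. No matches overlapped.
Flt1: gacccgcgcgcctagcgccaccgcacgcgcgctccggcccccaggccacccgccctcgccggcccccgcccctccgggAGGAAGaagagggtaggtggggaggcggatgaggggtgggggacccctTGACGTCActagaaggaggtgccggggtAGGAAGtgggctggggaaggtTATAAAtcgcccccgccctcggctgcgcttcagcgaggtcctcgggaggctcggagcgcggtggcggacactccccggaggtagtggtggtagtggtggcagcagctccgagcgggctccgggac
Kdr: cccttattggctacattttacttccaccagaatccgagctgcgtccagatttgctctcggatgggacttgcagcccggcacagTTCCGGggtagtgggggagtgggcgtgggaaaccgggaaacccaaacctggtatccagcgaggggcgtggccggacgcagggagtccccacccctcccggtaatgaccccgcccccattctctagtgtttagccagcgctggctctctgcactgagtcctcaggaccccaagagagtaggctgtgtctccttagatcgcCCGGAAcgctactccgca
Edn1: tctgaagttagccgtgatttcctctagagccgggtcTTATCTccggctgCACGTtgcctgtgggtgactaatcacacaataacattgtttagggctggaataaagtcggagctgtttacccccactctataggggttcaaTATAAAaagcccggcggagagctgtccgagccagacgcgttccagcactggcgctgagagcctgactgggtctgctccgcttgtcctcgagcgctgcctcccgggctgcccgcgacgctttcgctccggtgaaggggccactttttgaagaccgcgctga
The Flt1 window held TATAAA (first base at -75 from the annotated start), TGACGTCA and AGGAAG, the last at 2 places. In the Kdr window the matches were 2 copies of CCGGAA, 1 on each strand. The Edn1 window held TATAAA (first base at -110), the GATA element and the hypoxia response core in the spelling ACGTG. Among all 33469 promoter windows of the table, TATAAA was present in 14.2%, AGATAA in 11.6%, ACGTG in 19.3%, TGACGTCA in 1.83%, TGACTCA in 4.63%, CCGGAA in 15.0% and AGGAAG in 34.5%. The windows of Cldn5 and Acta2 held 0 exact matches to these elements, and 0 of the 5 windows held a strict CArG box, which 1.64% of all windows hold. Near spellings were not counted. The Kdr window holds gcgtg and the Flt1 window cacgc, its reverse complement, both resembling the hypoxia response core ACGTG. The Acta2 window holds ccctatatgg and ccttgtttgg, which resemble the CArG box, and tatataa, which resembles TATAAA. A lack of exact matches therefore does not show that a promoter lacks such elements. A match is a string of letters and was not tested for binding.

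Signals below are on the deposited linear scale. For tests 372.4 (the 20th percentile over the table) was added to each signal before taking log2, which understates the change of dim genes, and differences (log2) are on that scale with limma's standard error and 95% confidence interval. A probe set was tested if 2 or more arrays gave a signal over 918.8, which is the 40th percentile. Of the 9 member probe sets 5 passed (Cldn5, Vwf, 1 of 3 for Flt1, Kdr and Acta2). Pecam1, Edn1 and the other Flt1 probe sets lay below the filter and are given from a fit without it. Signals of different probe sets are not compared as levels.

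None of the 5 tested member probe sets passed an adjusted p of 0.05 in any of the 7 comparisons (limma, Benjamini-Hochberg over 10293 probe sets). Over all tested probe sets the share called was 0.262% for MCAO minus sham with vehicle, 0.243% for MCAO minus sham with candesartan and 0.418% for MCAO over both pretreatments. It was 0.068% for candesartan minus vehicle after MCAO, 0.0194% for the interaction, 0% for candesartan after sham and 0% for candesartan over both operations. A count of 0 among 5 is near such shares. At an unadjusted p under 0.05 there were 404 to 1351 probe sets per comparison over the whole table, and among the tested members this held for Acta2 alone, with candesartan (MCAO minus sham) and after MCAO (candesartan minus vehicle). The 95% intervals of the tested members reached 0.28 to 0.50 (log2) either side of the difference between 2 groups, so smaller differences could not exclude 0 with 2 pools per group. These intervals are not adjusted for the number tested, and larger differences could also go uncalled. Acta2 at -0.58 for MCAO minus sham with candesartan did (adjusted p = 0.349 by limma), so 0 calls do not exclude changes of that size.

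**Figure D1:**
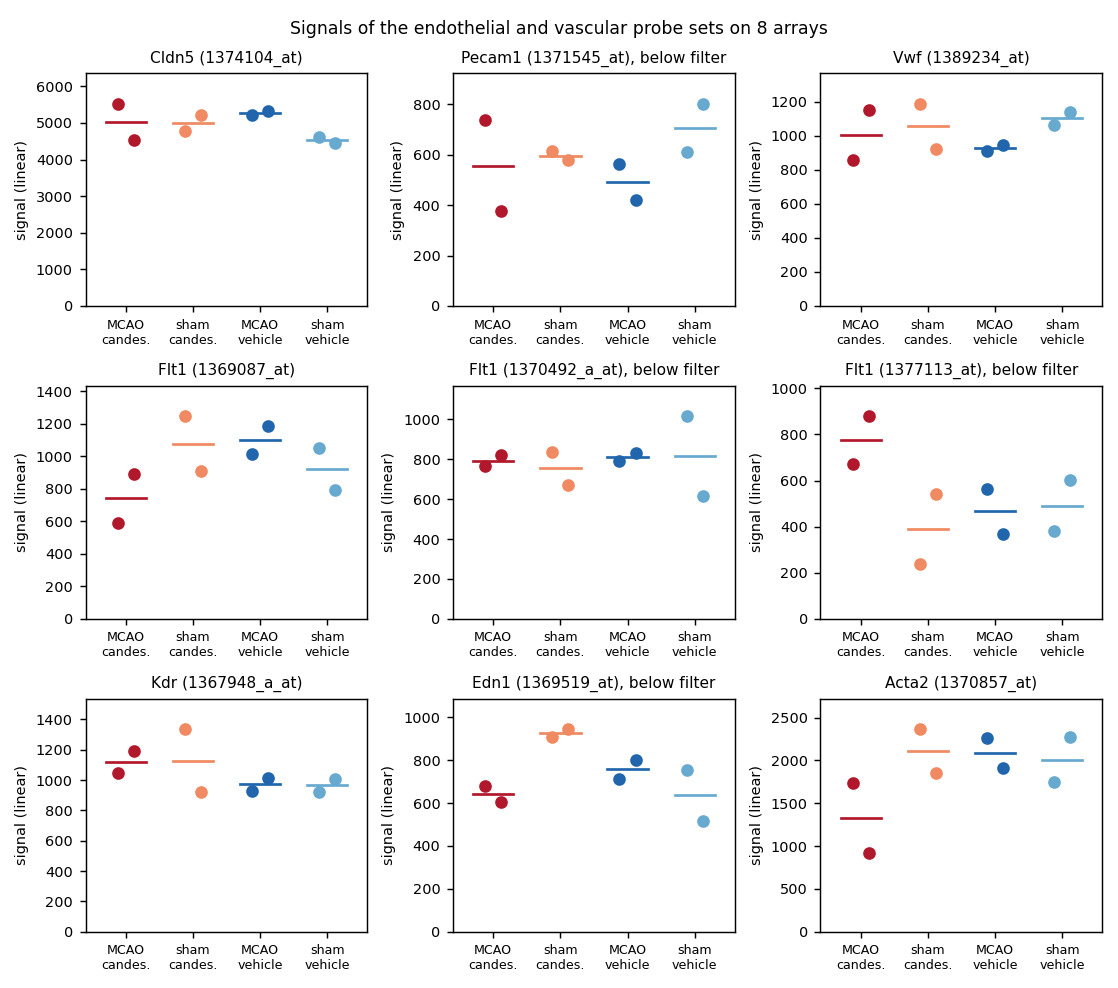
Signal (linear scale, axis from 0) of each member probe set on the 8 arrays. Points are the 2 pools of a group, lines their mean, with MCAO candesartan, sham candesartan, MCAO vehicle and sham vehicle side by side. Cldn5 stays between 4466 and 5529, while Acta2 spans 921 to 2363 with its lowest point in MCAO candesartan.

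Cldn5 was the steadiest member across the arrays. It read 5529 and 4546 in the MCAO candesartan pools, against 4790.5 and 5215 in the sham candesartan pools. With vehicle it read 5212.5 and 5325.5 in MCAO, against 4615 and 4466 in sham. The highest array was 1.24 times the lowest, and the vehicle groups did not overlap, MCAO lying above sham. The difference between MCAO and sham was 0.20 ± 0.13 (log2, SE) with vehicle, with an interval of -0.08 to 0.48 and an adjusted p of 0.818 by limma. With candesartan it was 0.00 ± 0.13 with an interval of -0.27 to 0.28, and the sham candesartan pools lay between the MCAO candesartan pools. Over both pretreatments the difference was 0.10 with an interval of -0.09 to 0.30, which is 0.937-fold to 1.23-fold on this scale.

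Vwf encodes von Willebrand factor, the secreted protein that tethers platelets to injured vessel wall. Its signals were 858 and 1152 in MCAO candesartan, against 1190 and 921 in sham candesartan. They were 914 and 949 in MCAO vehicle, against 1062 and 1143 in sham vehicle. Both MCAO vehicle pools lay below both sham vehicle pools, whereas the candesartan groups overlapped. The difference of -0.18 ± 0.18 with vehicle (interval -0.59 to 0.23) did not pass the test (adjusted p = 0.917), and with candesartan it was -0.05 ± 0.18.

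Pecam1, which encodes an adhesion molecule of endothelial junctions that platelets and leukocytes also carry, was dim. It gave 736 and 377 in MCAO candesartan, against 613 and 578 in sham candesartan, and 562 and 422 in MCAO vehicle, against 610 and 803 in sham vehicle. None of the 8 signals reached the filter. MCAO vehicle lay below sham vehicle without overlap, with a difference of -0.32 ± 0.23 and an interval of -0.84 to 0.20, while with candesartan the difference was -0.09 ± 0.23. Markers of blood cells, which could contribute Pecam1 and Vwf transcripts, were measured by 10 probe sets of 9 genes. Their summed signal was 84255 to 87097 in MCAO candesartan, against 98774 to 115672 in sham candesartan, and 93734 to 100701 in MCAO vehicle, against 97199 to 108287 in sham vehicle. Their part in the Pecam1 and Vwf values was not tested.

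Flt1 was represented by 3 probe sets, and they disagreed. Probe set 1369087_at, which passed the filter, read 588 and 894 in MCAO candesartan, against 1245 and 911 in sham candesartan. With vehicle it read 1011 and 1189 in MCAO, against 1048 and 794 in sham. The MCAO candesartan pools were below every pool of the groups sham candesartan and MCAO vehicle. The difference between MCAO and sham was -0.39 ± 0.21 with candesartan (interval -0.86 to 0.09, adjusted p = 0.492) and 0.19 ± 0.21 with vehicle (interval -0.28 to 0.66). Between candesartan and vehicle after MCAO it was -0.41 ± 0.21 (adjusted p = 0.430).

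Probe set 1377113_at of Flt1 ran the opposite way. It read 671 and 878 in MCAO candesartan, against 237.0 and 542 in sham candesartan, and 563 and 370 in MCAO vehicle, against 379 and 602 in sham vehicle. Its 2 MCAO candesartan signals were above those of all other groups, with a difference from sham candesartan of 0.61 ± 0.25 (interval 0.035 to 1.19, adjusted p = 0.439 without the filter). The remaining probe set, 1370492_a_at, gave 765 and 822 in MCAO candesartan, against 835 and 673 in sham candesartan, and 793 and 832 in MCAO vehicle, against 1015 and 615 in sham vehicle, so that all its groups overlapped. Over the 8 arrays the log2 values of 1369087_at and 1377113_at had a Pearson correlation of -0.73, and 1369087_at and 1370492_a_at of 0.47. These are descriptions over 8 arrays, and which part of the Flt1 transcript each probe set reads was not used here. No direction is given for Flt1 as a gene.

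Kdr, the signalling VEGF receptor, read 1046 and 1191 in MCAO candesartan, against 1335 and 922 in sham candesartan. With vehicle it read 929 and 1015 in MCAO, against 924 and 1009 in sham. The vehicle groups were nearly superimposed, and the sham candesartan pools held both the highest and the lowest signal. The difference between MCAO and sham was 0.00 ± 0.19 with candesartan (interval -0.41 to 0.41) and 0.01 ± 0.19 with vehicle (interval -0.41 to 0.42). Between candesartan and vehicle over both operations it was 0.15 ± 0.13, and both MCAO candesartan pools lay above both MCAO vehicle pools (adjusted p = 0.825 by limma over both operations).

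Edn1, the precursor gene of endothelin-1, stood above the filter on 1 array only. Its signals were 679 and 606 in MCAO candesartan, against 907 and 944 in sham candesartan. They were 714 and 802 in MCAO vehicle, against 757 and 516 in sham vehicle. Both sham candesartan signals were higher than all 6 others, and both MCAO candesartan signals lay below them. In the fit without the filter the difference between MCAO and sham was -0.36 ± 0.19 with candesartan (interval -0.78 to 0.07, adjusted p = 0.527) and 0.17 ± 0.19 with vehicle (interval -0.25 to 0.60). The difference between these differences was -0.53 ± 0.26, with an interval of -1.13 to 0.07 and an adjusted p of 0.651, so a dependence of the MCAO difference on pretreatment was not shown. Candesartan minus vehicle after sham was 0.37 ± 0.19 (adjusted p = 1.00).

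Acta2 showed the largest difference of the tested members. It read 1730 and 921 in MCAO candesartan, against 2363 and 1856 in sham candesartan, and 2264 and 1913 in MCAO vehicle, against 1743 and 2268 in sham vehicle. Both MCAO candesartan signals were below all 6 others, by little for the pool at 1730 and by far for that at 921. The difference between MCAO and sham with candesartan was -0.58 ± 0.22 (interval -1.08 to -0.09, adjusted p = 0.349 by limma). Between candesartan and vehicle after MCAO it was -0.57 ± 0.22 (interval -1.07 to -0.08, adjusted p = 0.328), while MCAO minus sham with vehicle was 0.05 ± 0.22. The interaction was -0.64 ± 0.32 (adjusted p = 0.577). The value rested on MCAO candesartan 2: without it the first of these differences was -0.23 and the second -0.22. Without MCAO candesartan 1, which leaves the array at 921 alone in its group, they were -0.93 and -0.92. Each of these fits leaves 1 array in the group, so only the sizes are given.

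**Figure D2:**
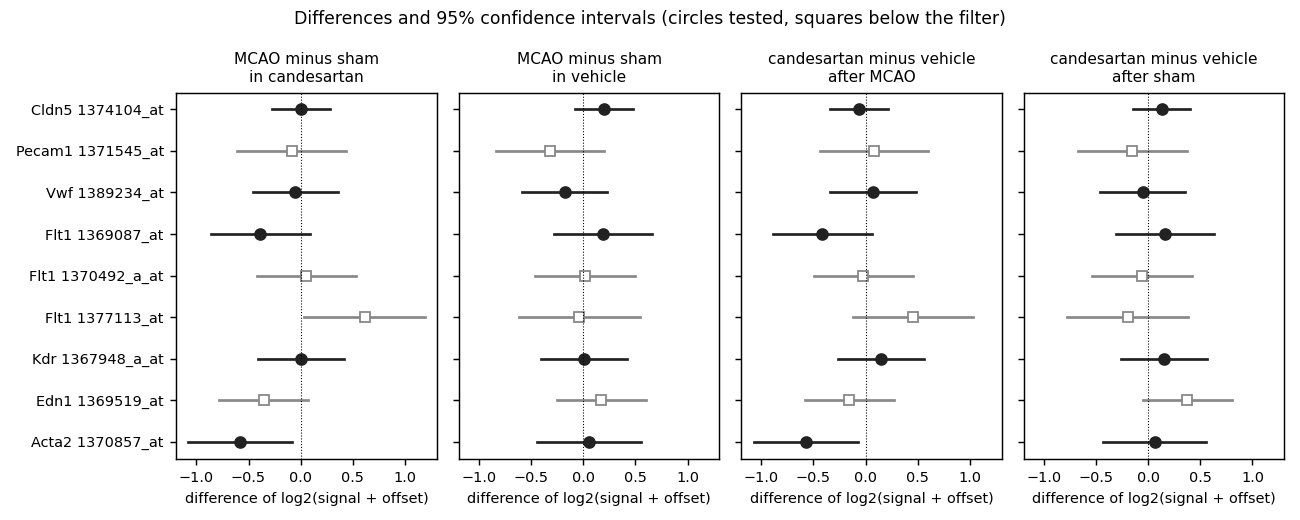
Differences of log2(signal + offset) for each member probe set with 95% confidence intervals of single probe sets, not adjusted for the number tested, in 4 comparisons: MCAO minus sham with candesartan and with vehicle, and candesartan minus vehicle after MCAO and after sham. Circles are tested probe sets and squares those below the filter. Only Acta2, in 2 panels, and Flt1 1377113_at, in 1 panel, have intervals that exclude 0.

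Other smooth muscle genes were mixed in where their lowest signal lay. Myl9, which encodes a myosin regulatory light chain, read 1286 and 298 in MCAO candesartan, against 1562 and 1238 in sham candesartan, and 942 and 1418 in MCAO vehicle, against 1386 and 1335 in sham vehicle. Myh11, the smooth muscle myosin heavy chain gene and a defining marker of that cell type, read 1412 and 400 in MCAO candesartan, against 1731 and 883 in sham candesartan, and 1220 and 1439 in MCAO vehicle, against 1549 and 1038 in sham vehicle. In each of these genes the second MCAO candesartan pool was lowest of all 8, and the first lay among the other groups. Of the 15 tested probe sets of the smooth muscle contractile list, 7 had their lowest signal on that array, and 5 had it on a sham vehicle array, both Actn1 probe sets among them. The same array was lowest for 8 of 16 tested fibroblast probe sets, 3 of 6 pericyte probe sets, 3 of 22 endothelial probe sets and, as given above, 27.7% of all tested probe sets. Tagln, another smooth muscle marker, lay below the filter and was lowest on an MCAO vehicle array, at 181.5.

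Meningeal and perivascular fibroblast markers, another possible source of actin transcripts in a hemisphere segment, were also measured. All 16 tested probe sets of 14 genes had a difference below 0 between MCAO and sham with candesartan, with a median of -0.32 against -0.03 over all tested probe sets, and 0 were called. With vehicle 3 of the 16 were above 0 and the median was -0.32 too. The 16 were also set against their sham vehicle mean (log2), as a median for each array. It was 0.34 on sham candesartan 1 but -0.23 on sham candesartan 2, against -0.38 and -0.34 in MCAO candesartan. The second sham candesartan pool thus lay near the MCAO candesartan pools, and the candesartan difference leaned on the first. In MCAO vehicle it was -0.26 and -0.35, against 0.08 and -0.08 in sham vehicle. The summed signal of the fibroblast markers was 68694 to 79256 in MCAO candesartan, against 68273 to 112279 in sham candesartan, and 65539 to 68503 in MCAO vehicle, against 77050 to 97784 in sham vehicle. Much of each sum came from 1 probe set, that of Ptgds, so the sums mainly follow that gene. Ptgds read 39905 and 52463 in MCAO candesartan, against 58941 and 37567 in sham candesartan. With vehicle it read 32975 and 35316 in MCAO, against 55367 and 39808.5 in sham. The part of these cells in the Acta2 values was not tested.

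The members did not vary together across the arrays. Cldn5 and Vwf, both endothelial, had a Pearson correlation of -0.91 over the 8 arrays (-0.89 without MCAO candesartan 2), and Kdr and Vwf 0.63. Acta2 and Cldn5 gave 0.22, which turned to -0.40 without MCAO candesartan 2. Among 8656 tested probe sets of other named genes the closest to Cldn5 were Akap8l at 0.96, Clk4 at 0.95 and Mau2 at 0.95. Closest to Vwf were Tgfb2 at 0.97, the basement membrane gene Sparc at 0.96 and Cpped1 at 0.95. Flt1 1369087_at was closest to Tnip1 at 0.99, Vps26c at 0.96 and Ndst2 at 0.95, and Kdr to Trappc1 at 0.96, Nolc1 at 0.93 and Tmem50a at 0.92. Acta2 was closest to Srp68, Slc7a3 and Mrpl52, each at 0.98 over all arrays and at 0.90, 0.91 and 0.89 without MCAO candesartan 2. All these values describe 8 arrays, which share the 4 groups, and no test was made on them.

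The wider vascular set comprised 137 genes in 8 lists, of which 115 were on the array and 73 had a tested probe set. None of their 98 tested probe sets was called in any of the 7 comparisons by limma, and at an unadjusted p under 0.05 there were 13.3% of them for MCAO minus sham with vehicle and 15.3% with candesartan, against 7.06% and 12.4% over all tested probe sets. The lowest adjusted p was 0.0564, for candesartan minus vehicle after MCAO. It belonged to probe set 1398333_at of Epas1, which encodes a hypoxia-inducible factor subunit abundant in endothelium and read 4750.5 and 4086 in MCAO candesartan, against 8783 and 8490 in MCAO vehicle. Both MCAO candesartan pools were below the sham pools too, which lay at 6726 to 8697, and the difference was -0.91 ± 0.14. The other Epas1 probe set, 1369703_at, read 1355 and 654 in MCAO candesartan, against 1487 and 1174 in MCAO vehicle, groups that overlapped, with a difference of -0.35 ± 0.25 (adjusted p = 0.585).

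Endothelial identity and junction genes had list medians near 0 but a wide spread, from -0.75 to 0.59 with vehicle and from -0.53 to 0.51 with candesartan. Of 22 tested probe sets of 17 genes, 12 were above 0 for MCAO minus sham with vehicle and 7 with candesartan, with medians of 0.01 and -0.04 against 0.01 and -0.03 over all tested probe sets. Other brain cells express some of these genes too, such as Ctnnb1, so the medians do not describe endothelium alone. Over both pretreatments the smallest p in that list belonged to Fli1, an ETS transcription factor gene, at -0.53 (adjusted p = 0.405), and to Klf2, a flow-responsive transcription factor gene, at 0.34 (adjusted p = 0.457). Fli1 read 1219 and 1567 in MCAO candesartan, against 1879 and 1712 in sham candesartan, and 1033 and 318 in MCAO vehicle, against 1366 and 1214 in sham vehicle. Its value leaned on the array at 318, MCAO vehicle 2, without which it was -0.27. Klf2 was 0.18 without sham candesartan 2, and its other tested probe set gave 0.14. Emcn, which encodes the endothelial mucin endomucin, was at -0.25 (-0.17 without sham vehicle 1 and -0.16 without MCAO candesartan 2), and Tie1, the gene of the receptor related to Tek, at 0.28 (adjusted p = 0.586). Tie1 read 1099 and 866 in MCAO vehicle, against 581 and 473 in sham vehicle, and 924 and 659 in MCAO candesartan, against 855 and 751 in sham candesartan. MCAO and sham were apart with vehicle and overlapped with candesartan, and the interaction of -0.61 did not pass (adjusted p = 0.571).

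Blood-brain barrier transport genes had medians of 0.04 with vehicle and -0.10 with candesartan over 18 tested probe sets of 15 genes. Tfrc, the transferrin receptor gene that barrier endothelium uses to take up iron, had 2 tested probe sets that differed. Probe set 1388750_at read 8990 and 9220 in MCAO candesartan, against 6974 and 7292 in sham candesartan, and 7420.5 and 7654.5 in MCAO vehicle, against 6130 and 6406 in sham vehicle. MCAO was above sham without overlap with either pretreatment, and over both the difference was 0.29 ± 0.08 (adjusted p = 0.183). Probe set 1371113_a_at gave 0.02 ± 0.15 over both, with -0.12 for candesartan and 0.16 for vehicle, so no direction is given for Tfrc as a gene. Slc7a5, a large neutral amino acid transporter gene, had 0.38 (adjusted p = 0.253), the taurine transporter gene Slc6a6 0.21 and the lipoprotein receptor gene Lrp8 -0.29 (-0.15 without MCAO candesartan 2 and -0.18 without MCAO vehicle 1), of which none was called. Other brain cells express these genes too.

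The list of VEGF and angiopoietin ligands and co-receptors had medians of -0.10 with vehicle and -0.21 with candesartan over 14 tested probe sets of 9 genes. Its tested genes included Epas1, Hif1a, Notch1, Apln and Angptl4 and no angiopoietin, so these medians do not describe VEGF ligands and co-receptors alone. The Vegfa probe sets gave 0.06 and 0.20 with vehicle and 0.22 and 0.13 with candesartan. Vegfb gave -0.13 with vehicle and 0.43 with candesartan, and Pgf -0.20 and -0.26. Angptl4, a secreted lipase inhibitor gene known to respond to hypoxia, read 1084 and 970 in MCAO candesartan, against 1100 and 1160 in sham candesartan, and 1611 and 1904 in MCAO vehicle, against 988 and 1020 in sham vehicle. The vehicle groups were well apart, with a difference of 0.63 ± 0.16 that did not pass (adjusted p = 0.244), and with candesartan it was -0.10. Apln, which encodes a vasoactive peptide, and the VEGF co-receptor gene Nrp1 had -0.21 each over both pretreatments, and their other tested probe sets -0.12 and -0.22. Apln was -0.13 without sham candesartan 2, and Nrp1 -0.12 without MCAO vehicle 2 or without sham candesartan 1. In the endothelin system the converting enzyme gene Ece1 was the only tested gene, at -0.07 (adjusted p = 0.884), and leaving out single arrays moved it between -0.19 and 0.04.

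Genes of endothelial activation, adhesion and coagulation held the nearest approach to the threshold for MCAO over both pretreatments. Adamts1, a matrix protease gene, read 1526 and 1117 in MCAO candesartan, against 821 and 842 in sham candesartan, and 2077 and 1893 in MCAO vehicle, against 1089 and 670 in sham vehicle. Every MCAO pool was above every sham pool, and the difference was 0.71 ± 0.14 (adjusted p = 0.0751 by limma). Without MCAO candesartan 1 the Adamts1 difference was 0.62, and without MCAO candesartan 2 it was 0.79. Timp1, the gene of a metalloprotease inhibitor, read 2386.5 and 2199 in MCAO vehicle, against 1306 and 936 in sham vehicle, and 1672 and 553 in MCAO candesartan, against 1180 and 773 in sham candesartan. Its 2 MCAO candesartan pools lay on either side of the sham pools, and over both pretreatments its difference was 0.45 (adjusted p = 0.571), and leaving out MCAO candesartan 1 made it 0.16, leaving out MCAO candesartan 2 0.73. Tfpi, the tissue factor pathway inhibitor gene, was at -0.24, and Vcam1, a leukocyte adhesion gene, at -0.18 (-0.11 without MCAO vehicle 2). The list as a whole had medians of 0.06 with vehicle and -0.17 with candesartan over 8 tested probe sets.

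Mural cell and matrix genes were likewise without a called member. The smooth muscle contractile list had medians of 0.02 with vehicle and -0.09 with candesartan. In it the actin cross-linker gene Actn1, expressed well beyond smooth muscle, was at 0.39 over both pretreatments (adjusted p = 0.184) and at 0.28 by its other probe set. Vcl, a focal adhesion gene, had probe sets of opposite sign, 0.20 ± 0.09 and -0.18 ± 0.11. The 5 tested probe sets of the tropomyosin gene Tpm1 ran from -0.18 to -0.05. Myl9 was at -0.46, which was -0.13 without MCAO candesartan 2 and -0.79 (adjusted p = 0.0231 by limma) without MCAO candesartan 1. Pericyte genes had medians of -0.02 and -0.23, with Notch3, a receptor gene of mural cells, at -0.38 (adjusted p = 0.274), Vtn at -0.35, Ifitm1 at -0.08 and the regulator gene Rgs5 at 0.05. Leaving out single arrays moved Ifitm1 between -0.18 and 0.03 and Rgs5 between 0.01 and 0.10. Basement membrane genes had medians of 0.10 and -0.08, with the proteoglycan gene Agrn at 0.21 (adjusted p = 0.471) and the fibronectin gene Fn1 at -0.25 (-0.10 without MCAO candesartan 2, -0.39 without MCAO candesartan 1). Lamc1, a laminin chain gene, had probe sets of opposite sign, -0.29 ± 0.20 and 0.10 ± 0.10, and those of the nidogen gene Nid1 gave -0.26 ± 0.14 and -0.05 ± 0.14. The lower probe set of each gene had its lowest signal on MCAO candesartan 2, at 383 for Lamc1 and 596 for Nid1. Without that array these were -0.05 and -0.15, while without MCAO candesartan 1 the Lamc1 value was -0.54, and without sham candesartan 1 the Nid1 value was -0.17.

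**Figure D3:**
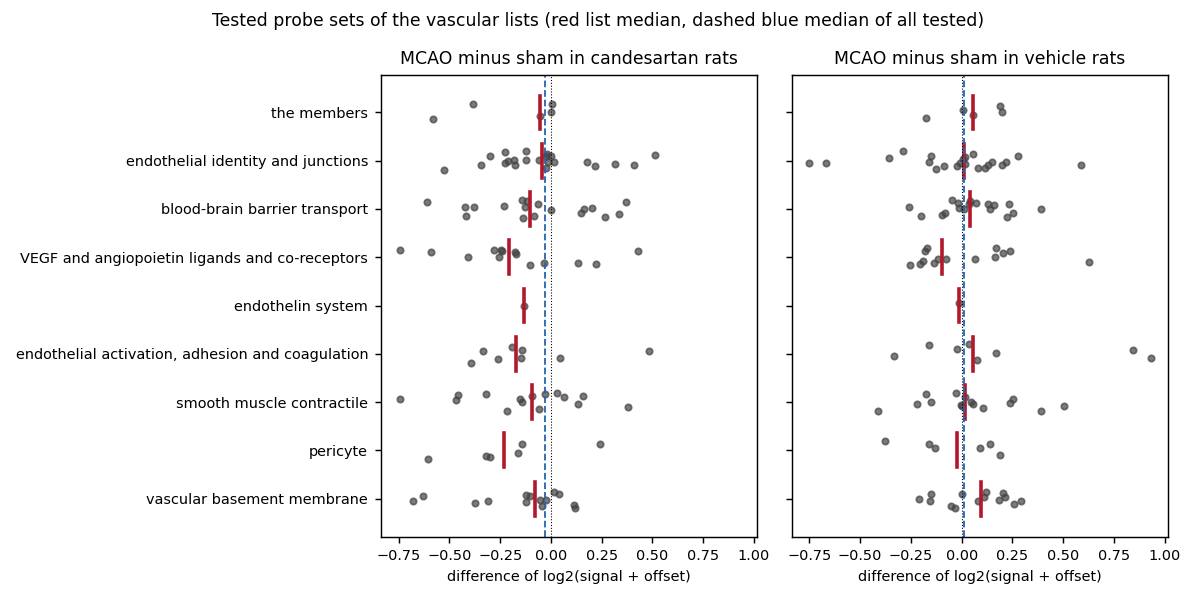
Difference of log2(signal + offset) between MCAO and sham for each tested probe set (points, spread vertically for visibility) of the members and of the 8 vascular lists, with candesartan on the left and vehicle on the right. Red bars are list medians and the dashed blue line is the median of all tested probe sets, -0.03 with candesartan and 0.01 with vehicle. List medians run from -0.23 to -0.04 with candesartan and from -0.10 to 0.10 with vehicle, and no point passed the test.

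Candesartan after sham surgery asked whether the drug alone moved these transcripts. The 5 tested members had differences of -0.05 to 0.16 from sham vehicle, 4 of them above 0, with an adjusted p of 1.00 by limma for each. At an unadjusted p under 0.05 this comparison held 404 of the tested probe sets, 0 of them members. Over both operations the candesartan differences of the tested members ran from -0.26 for Acta2 to 0.15 for Kdr, with an adjusted p of 0.761 or more.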

How the data were processed

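The authors deposited 1 table with a linear intensity for each probe set and array. GCOS, the Affymetrix operating software, is named per the submitters' processing notes, with settings not given in the sources used here. Of 15923 probe sets 57 controls were left out. Of the rest 12783 had 1 symbol in the platform annotation, 312 several and 2771 none; 12748 of the first matched RefSeq genes (GRCr8) and 0 symbols changed. Detection calls were not analysed here.

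Signals were tested as log2(signal + 372.4) with limma 3.58.1 in R 4.3.3: 4 group means, eBayes (trend in the variance), residual degrees of freedom of 4, 7 contrasts, Benjamini-Hochberg adjustment within each over 10293 probe sets. With 2 pools against 2 no exact test can go below p = 0.333, so p-values rest on the spread pooled over genes and groups, and the number of arrays limits precision. They measure the spread between pools.

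All member probe sets were named, and, from each vascular list, called genes and up to 4 with the smallest p for MCAO over both pretreatments, and the 3 closest probe sets by correlation. Myh11, Tagln and the Epas1, Angptl4, Tie1 and Timp1 group comparisons outside that contrast were described after their values were seen. The members and lists were chosen with earlier results of these data known. Alternatives covered scaling, offset, filter, variance model, groups fitted, a replicate block and leaving out arrays.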

Additional observations from a re-analysis of the deposited data

How the results depend on the processing

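The number of member probe sets called was 0 in each of the 7 comparisons and stayed at 0 under the 9 alternatives of scaling, offset, filter, variance model, groups fitted and replicate block that could be run for it. Leaving out single arrays gave 0 to 1 for MCAO minus sham with candesartan and 0 to 1 for candesartan minus vehicle after MCAO; the 1 was Acta2 without MCAO candesartan 1. Of 1044 recomputed member differences 71 changed sign, none of them called, with sizes of at most 0.23 (log2) before and after. Over all 10293 tested probe sets such alternatives called 0 to 9 for candesartan minus vehicle after MCAO and 12 to 93 for MCAO minus sham with vehicle. Calls among the 98 tested probe sets of the vascular lists were counted after the data were seen. There 0 called became 1 for candesartan minus vehicle after MCAO with quantile normalization (Epas1, -0.93, adjusted p = 0.0371 by limma). It became 2 for MCAO minus sham with vehicle when only the groups compared were fitted (Timp1 and Adamts1). Leaving out single arrays gave 0 to 10 for MCAO minus sham with candesartan, 0 to 8 for candesartan minus vehicle after MCAO, 0 to 3 for the interaction, 0 to 2 for MCAO over both pretreatments and 0 to 3 for candesartan over both operations. The highest came without MCAO candesartan 1, and the 2 for MCAO over both pretreatments also without MCAO candesartan 2. Without MCAO candesartan 1 the calls over all tested probe sets rose as well, as given below. The rise was therefore not particular to the members or to the vascular lists. Its cause was not tested.

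Over the whole table the count of 27 for MCAO minus sham with vehicle ranged from 12 to 93 and, leaving out an array, from 7 to 39. The 25 with candesartan ranged from 11 to 31 and from 5 to 837. The 43 over both pretreatments ranged from 30 to 47 and from 23 to 389, the 7 for candesartan after MCAO from 0 to 9 and from 0 to 987, and the 2 for the interaction from 0 to 3 and from 0 to 295. Candesartan over both operations gave 0, and up to 303 leaving out an array. The counts of 837, 389, 987, 295 and 303 came without MCAO candesartan 1.

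Pools of the same number did not deviate together: the correlation of the differences between pools 1 and 2 ran from -0.09 to 0.14 over pairs of groups, so the number was not taken as pairing. With the replicate block 0 member probe sets were called in each comparison, and the counts over the table were 22, 22, 45, 4 and 0 for MCAO with vehicle, with candesartan, over both pretreatments, candesartan after MCAO and the interaction. The dim members, Pecam1, Edn1 and 2 of the Flt1 probe sets, are limited by their signal, which stayed below the filter on 7 or 8 arrays.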
